A study of Mus musculus with 18 samples.

Results

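Box H/ACA small nucleolar RNAs and small Cajal body RNAs were examined in Hydro-tRNA-seq libraries of mouse hippocampus. The members are the entries of the deposited table whose names start with Snora or Scarna, 48 genes in all, of which 39 are Snora and 9 are Scarna. They belong to 133 Snord, Snora and Scarna genes, the other 85 being box C/D snoRNAs named Snord, and to a table of 3574 entries. Among the snoRNA entries, 13 were near-identical copies of another entry, all of them Snord116l genes, and each set of copies was counted once. No member was a copy of another snoRNA. The question was what share of the snoRNA reads these RNAs take, how Snora compare with Scarna, and whether either differs between the 4 groups of mice.

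The 18 male mice were wild-type animals on a B6SJL background (WT) or 5xFAD animals, a transgenic model of Alzheimer's disease whose transgenes are driven by the neuronal Thy-1 promoter. At 6 months of age, all mice received an AAV2/8 vector with a GFP reporter into CA1 and the dentate gyrus of both hippocampi, with an shRNA under the H1 promoter that either silences RTP801, a stress-response protein (shRTP801), or serves as control (shCT), and the hippocampi were taken 4 weeks later. The vector is aimed at neurons, whereas a library holds RNA of all cells of both hippocampi. There were 6 mice of 5xFAD shRTP801, 3 of 5xFAD shCT, 4 of WT shRTP801 and 5 of WT shCT, each with its own library, and p-values measure the spread between mice. The mRNA of RTP801, Ddit4, is not an entry of the table used here, so its silencing was not checked in these libraries.

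Box H/ACA RNAs assemble with dyskerin, Nhp2, Nop10 and Gar1 and guide this enzyme to uridines that it turns into pseudouridine. Those of the nucleolus, the Snora, mostly act on ribosomal RNA, while the Scarna stay in Cajal bodies and guide modification of the spliceosomal snRNAs. A Scarna can carry C/D boxes, which guide ribose methylation, H/ACA boxes, or both. Most Snora and Scarna lie in introns of other genes and are cut out after splicing.

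For Hydro-tRNA-seq, RNA of 60 to 100 nucleotides (nt) is taken from a gel and broken by alkaline hydrolysis before sequencing. Of the 47 members with a RefSeq entry (assembly GRCm38.p6), 39 are longer than 100 nt, 6 are 60 to 100 nt and 2 are shorter than 60 nt, so most are longer than the RNA taken. Shares are shares of the reads of this size window and were not corrected for length unless stated. In the text, snoRNA reads are the reads of all 133 Snord, Snora and Scarna genes, and a share is a percentage of the snoRNA reads of the same mouse. Reads were recovered from the deposited normalized counts, and values are given as mean ± SD.

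Of the libraries, 3 stood apart. WT shCT mouse 5 held 71 snoRNA reads, WT shRTP801 mouse 4 held 6349 and 5xFAD shRTP801 mouse 7 held 943, while the other 15 held 134691 to 1743064. Reads were found for 1, 23 and 15 of the 48 members in these 3 libraries. With so few reads, a member at 0 reads could still have had a share of up to 4.23%, 0.0473% or 0.318%, the limit that a count of 0 allows. Values are given for the 15 mice with at least 100000 snoRNA reads (5 of 5xFAD shRTP801, 3 of 5xFAD shCT, 3 of WT shRTP801 and 4 of WT shCT), and tests are given for all 18 mice and for these 15. With near-identical entries of the table counted once, each of the 18 libraries held 17961451 to 33930019 reads, here called all reads. With every copy counted, the sums ran from 18527898 to 89228299. The part left out differed between mice, and was largest in WT shCT mouse 15 (32132099 against 89228299). Among brain small RNAs, Snord116 had 24 to 1545 reads and Snora35 14 to 727 in each of the 15 mice, Mir124 was detected in 15 of them, Mir128 in 11 and Mir9 in 4. Snord115 and the miRNAs fixed as markers of liver, muscle, heart and red blood cells were looked up and had no entry among those counted here. Other tissues could thus not be checked by them.

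In RefSeq, 6 members overlap a miRNA hairpin, and for 5 of them the miRNA gene is also an entry of the table. For 4 pairs the miRNA entry held most of the member's number of reads, and their mature miRNAs are given 5′ to 3′ from RefSeq (GRCm38.p6), with the seed (bases 2 to 8) in capitals, because a read inside the overlap belongs to both entries of a pair.
mmu-miR-1291 (Snora34): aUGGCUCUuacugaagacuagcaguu
mmu-miR-1843a-5p (Scarna3b): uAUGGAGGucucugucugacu
mmu-miR-1843a-3p (Scarna3b): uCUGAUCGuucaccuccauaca
mmu-miR-1843b-5p (Scarna3a): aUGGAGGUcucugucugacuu
mmu-miR-1843b-3p (Scarna3a): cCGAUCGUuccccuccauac
mmu-miR-664-5p (Snora36b): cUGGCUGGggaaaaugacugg
mmu-miR-664-3p (Snora36b): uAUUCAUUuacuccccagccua
No seed is identical among these 7. However, the bases of miR-1843a-5p after its first recur as the start of miR-1843b-5p, so their seeds overlap. A read within that stretch could come from Scarna3a or Scarna3b. Snora34, an H/ACA RNA in an intron of Kansl2, shares 73 bases with the hairpin of Mir1291, and Mir1291 had 3360 reads beside the 3395 of Snora34. Mir1843a had 730 beside the 746 of Scarna3b, and Mir1843b 153 beside the 163 of Scarna3a. Mir664 had 374 beside the 500 of Snora36b, with 54.3% to 93.0% of its number in the 14 mice with at least 10 Snora36b reads. Snora19 was different, since Mir3084-2 had 812 reads beside its 3238, with 17.2% to 40.7% of its number in the 15 mice with at least 10 Snora19 reads. Scarna13 overlaps Mir3069, which was not analysed here. In no library did the miRNA entry hold more reads than the member, and miR-1291 has only 7 of its 26 bases inside the span of Snora34. For Scarna3a, Scarna3b and Snora34, a value in the following is thus nearly the value of the miRNA entry too.

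**Figure D1:**
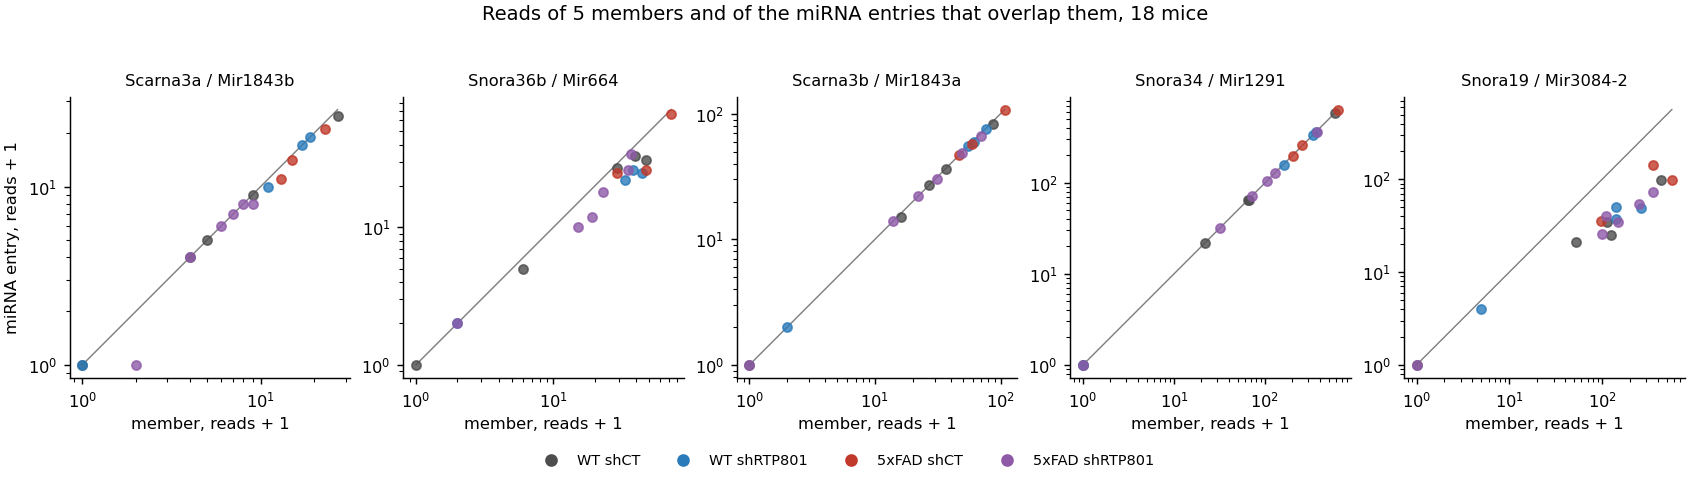
Reads plus 1 of 5 members (x axis, log) against reads plus 1 of the miRNA entry that overlaps each (y axis, log), 1 point per mouse, coloured by group; the gray line marks equal reads. Points of Snora34, Scarna3b and Scarna3a lie on or next to the line, whereas Snora19 lies below it, at 25.1% over all mice.

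Snora and Scarna together took 1.93% ± 0.423 of the snoRNA reads (n = 15), from 1.18% to 2.77%, and Snord the rest. The 39 Snora summed to 0.840% ± 0.255 and the 9 Scarna to 1.09% ± 0.285. Scarna exceeded Snora in 11 of the 15 mice and stood below it in 4, with 1.38 ± 0.436 Scarna reads per Snora read and a range of 0.670 to 2.15. The counting error of these shares is small beside that spread. In the mouse with the fewest snoRNA reads of the 15, 5xFAD shRTP801 mouse 12, Snora took 1.13% (Wilson 95% interval 1.07% to 1.18%) of 134691 reads.

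By group, Snora took 0.785%, 0.707%, 0.601% and 1.19% in WT shCT mice and 0.613%, 0.547% and 0.724% in WT shRTP801 mice. In 5xFAD shCT mice the values were 1.29%, 0.941% and 0.451%, and in 5xFAD shRTP801 mice 0.673%, 0.963%, 1.13%, 1.11% and 0.879%. The lowest and the highest value of the 15 mice were both in the 5xFAD shCT group, and every pair of groups overlapped. Scarna took 1.36%, 1.40%, 0.964% and 0.798% in WT shCT mice and 1.32%, 0.764% and 0.854% in WT shRTP801 mice. In 5xFAD shCT mice it took 1.15%, 0.747% and 0.725%, and in 5xFAD shRTP801 mice 1.11%, 1.34%, 1.65%, 0.951% and 1.15%. The Scarna shares of every pair of groups overlapped too.

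Group means of Snora were 0.95% ± 0.185 in 5xFAD shRTP801 and 0.892% ± 0.419 in 5xFAD shCT mice, beside 0.628% ± 0.0893 in WT shRTP801 and 0.821% ± 0.257 in WT shCT mice. Those of Scarna were 1.24% ± 0.267, 0.873% ± 0.239, 0.980% ± 0.299 and 1.13% ± 0.297 in the same order. Over the 4 comparisons of groups, the largest log2 difference was 0.58 for Snora, between 5xFAD shRTP801 and WT shRTP801 mice, beside an SD of 0.27 within those groups, and 0.51 for Scarna, between 5xFAD shRTP801 and 5xFAD shCT mice, beside an SD of 0.32. Scarna over Snora averaged 1.33 ± 0.292, 1.10 ± 0.443, 1.58 ± 0.511 and 1.5 ± 0.574 in that order. No p-value is given for these sums, because the list of members was chosen with results of these data known. With the 3 libraries of few snoRNA reads included, WT shCT mice averaged 1.22% ± 0.920 for Snora and 0.905% ± 0.567 for Scarna, since mouse 5 held 2 Snora reads and no Scarna read. WT shRTP801 mice then averaged 0.758% ± 0.271 and 0.869% ± 0.33, and 5xFAD shRTP801 mice 1.07% ± 0.347 and 1.25% ± 0.239.

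**Figure D2:**
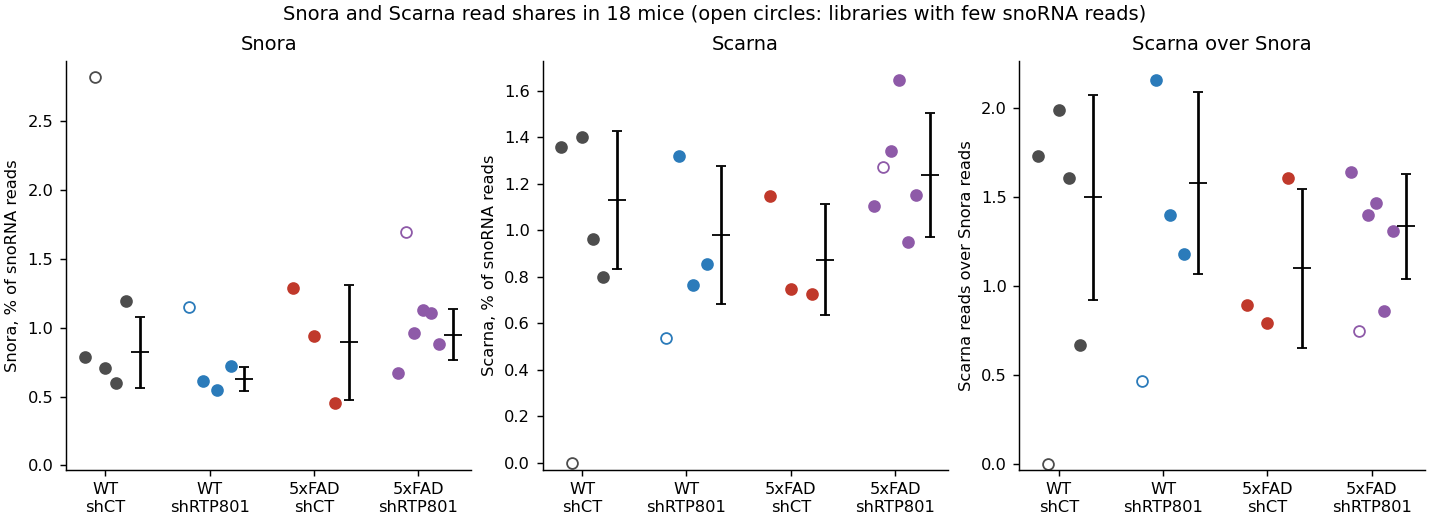
Snora share, Scarna share (both % of snoRNA reads) and Scarna reads per Snora read for each mouse by group; filled circles are the 15 mice with at least 100000 snoRNA reads, open circles the 3 other libraries, and bars the mean ± SD of the 15. The groups overlap in each panel, and the open circle of WT shCT mouse 5 lies at 2.82% for Snora and at 0 for Scarna.

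The reads of the classes were spread differently over their genes. Scarna9, a C/D-box RNA that guides ribose methylation of the U2 snRNA, held 94.3% ± 3.21 of the Scarna reads, from 87.4% to 97.9% over the 15 mice. Without Scarna9, the other 8 Scarna took 0.0565% ± 0.0241 of the snoRNA reads, and the Snora sum exceeded this in every one of the 15 mice, by 6.73-fold to 47.6-fold. The Snora reads were spread more widely. Snora81, which lies in an intron of the translation factor gene Eif4a2, held 31.8% ± 12.5 of them (17.9% to 58.0%), and Snora81, Snora3 and Snora20 together 52.6% (36.0% to 76.4%). Without Snora81, the other Snora took 0.570% ± 0.199. Among the 133 genes, Scarna9 ranked 20 and Snora81 ranked 44 by mean share. The median gene took 0.00851% among the Snora and 0.00383% among the Scarna.

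**Figure D3:**
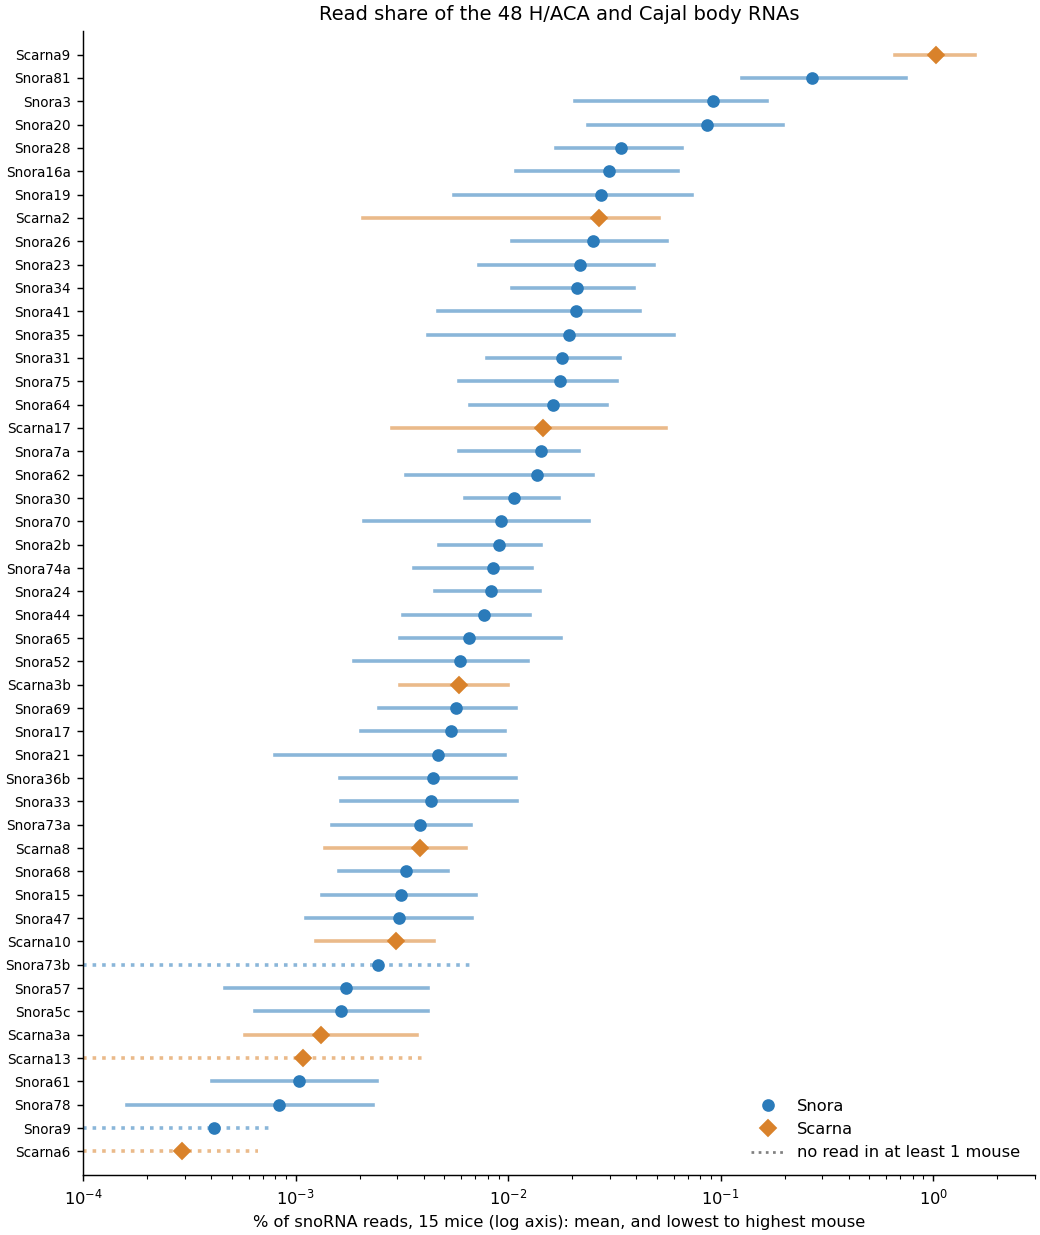
Mean share of snoRNA reads of each of the 48 members over 15 mice (x axis, %, log) with a line from the lowest to the highest mouse; circles are Snora, diamonds Scarna, and a dotted line marks members with no read in at least 1 mouse. Scarna9 stands alone near 1%, Snora81 follows at 0.27%, and most members lie below 0.03%.

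By box class, the 3 Scarna with C/D boxes (Scarna9, Scarna2 and Scarna17) held 98.6% of all Scarna reads. The 4 with H/ACA boxes (Scarna3a, Scarna3b, Scarna8 and Scarna13) held 1.09% and the 2 with both kinds of box (Scarna6 and Scarna10) 0.346%. Scarna of the H/ACA box type thus gave few of the Scarna reads in this size window. Scarna3b took 0.00584% ± 0.00212 of the snoRNA reads, Scarna8 0.00383% ± 0.00128 and Scarna10 0.00297% ± 0.000866. Scarna3a took 0.00132% ± 0.000801, Scarna13 0.00108% ± 0.000927 and Scarna6 0.000293% ± 0.000234, the last with at most 7 reads in a mouse.

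Per 100 nt of the RefSeq span, the reads of Scarna9 came to 2.18% of the snoRNA reads, against 0.170% for Snora81, 0.117% for Snora20, 0.0789% for Snora3 and 0.0514% for Scarna2. In this order Snora20 (61 nt) passed Snora3 (120 nt), and Scarna2 (61 nt) passed Snora28, Snora16a and Snora19. The RefSeq span of Scarna9 is 42 nt, below the gel window, and that of Snora19 is 56 nt. These spans, and the 61 nt of Snora20 and Scarna2, may be partial, and RefSeq was not the annotation used for counting. The values per length of these members, and their places in this order, thus rest on doubtful lengths.

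Scarna9 varied little between mice. It took 1.33%, 1.36%, 0.880% and 0.756% of the snoRNA reads in WT shCT mice, 1.25%, 0.694% and 0.747% in WT shRTP801 mice, 1.12%, 0.683% and 0.660% in 5xFAD shCT mice and 1.07%, 1.31%, 1.58%, 0.918% and 1.08% in 5xFAD shRTP801 mice. The highest mouse was 2.39-fold above the lowest, both in 5xFAD groups, and every pair of groups overlapped. The other 2 C/D-box Scarna varied far more, Scarna2 24.7-fold and Scarna17 19.5-fold.

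Scarna2, which also guides ribose methylation of U2, took 0.00208%, 0.0223%, 0.00664% and 0.0191% in WT shCT mice and 0.0403%, 0.0504% and 0.0514% in WT shRTP801 mice. These groups did not overlap. It took 0.0129%, 0.0456% and 0.0288% in 5xFAD shCT mice and 0.00850%, 0.0135%, 0.0356%, 0.0161% and 0.0460% in 5xFAD shRTP801 mice, 2 groups that overlapped. Scarna17 took 0.0134%, 0.00375%, 0.0551% and 0.00631% in WT shCT mice, 0.0192%, 0.00793% and 0.0418% in WT shRTP801 mice, 0.00283%, 0.00495% and 0.0218% in 5xFAD shCT mice and 0.00986%, 0.00300%, 0.00965%, 0.00385% and 0.0152% in 5xFAD shRTP801 mice. Its highest value was in WT shCT mouse 11, and the groups of every comparison overlapped. Over the 15 mice, the log2 shares of Scarna9 and Scarna2 had a Pearson correlation of -0.34 and those of Scarna2 and Scarna17 of 0.06, a description only, since all shares of a mouse have the same denominator.

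Among the Snora, Snora81 took 0.455%, 0.247%, 0.135% and 0.343% in WT shCT mice, 0.269%, 0.162% and 0.129% in WT shRTP801 mice, 0.741%, 0.256% and 0.126% in 5xFAD shCT mice and 0.244%, 0.245%, 0.261%, 0.230% and 0.205% in 5xFAD shRTP801 mice. The 5xFAD shCT group held both the highest and the lowest of the 15 values, while the 5 mice of the 5xFAD shRTP801 group lay close together (SD 0.0210%). Snora3, in an intron of the ribosomal protein gene Rpl27a, took 0.0509%, 0.0737%, 0.0206% and 0.149% in WT shCT, 0.0486%, 0.0659% and 0.0697% in WT shRTP801, 0.139%, 0.124% and 0.0596% in 5xFAD shCT and 0.0783%, 0.128%, 0.108%, 0.166% and 0.104% in 5xFAD shRTP801 mice. All 5 mice of the last group were above all 3 WT shRTP801 mice. The same was so for Snora20, in an intron of the chaperonin gene Tcp1, which took 0.0635%, 0.0297% and 0.0617% in WT shRTP801 and 0.0693%, 0.0950%, 0.174%, 0.196% and 0.0737% in 5xFAD shRTP801 mice. In WT shCT mice Snora20 took 0.0536%, 0.0683%, 0.115% and 0.10%, and in 5xFAD shCT mice 0.102%, 0.0724% and 0.0236%.

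Snora28, from an intron of Eif5, took 0.0183%, 0.0168% and 0.0295% in WT shRTP801 and 0.0297%, 0.0658%, 0.0631%, 0.0413% and 0.0339% in 5xFAD shRTP801 mice, which were just apart. It averaged 0.0327% ± 0.00613 in WT shCT and 0.0270% ± 0.00862 in 5xFAD shCT mice. Snora19, from an intron of Eif3a, took 0.0197%, 0.0235%, 0.0339% and 0.0276% in WT shCT, 0.0122%, 0.00816% and 0.0205% in WT shRTP801, 0.0236%, 0.0345% and 0.00556% in 5xFAD shCT and 0.0184%, 0.0331%, 0.0735%, 0.0479% and 0.0299% in 5xFAD shRTP801 mice. It was 13.2-fold higher in the highest than in the lowest mouse, and its WT shCT and WT shRTP801 groups overlapped. Over the 15 mice, Snora16a averaged 0.0299% ± 0.0188, Snora26 0.0252% ± 0.0138, Snora31 0.0178% ± 0.00818, Snora75 0.0176% ± 0.00728 and Snora7a 0.0142% ± 0.00502, with each of them 3.68-fold to 5.82-fold higher in the highest than in the lowest mouse. Snora75, which lies in an intron of the nucleolin gene Ncl, was the only member with a read in WT shCT mouse 5, where its 2 of 71 reads made 2.82%.

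**Figure D4:**
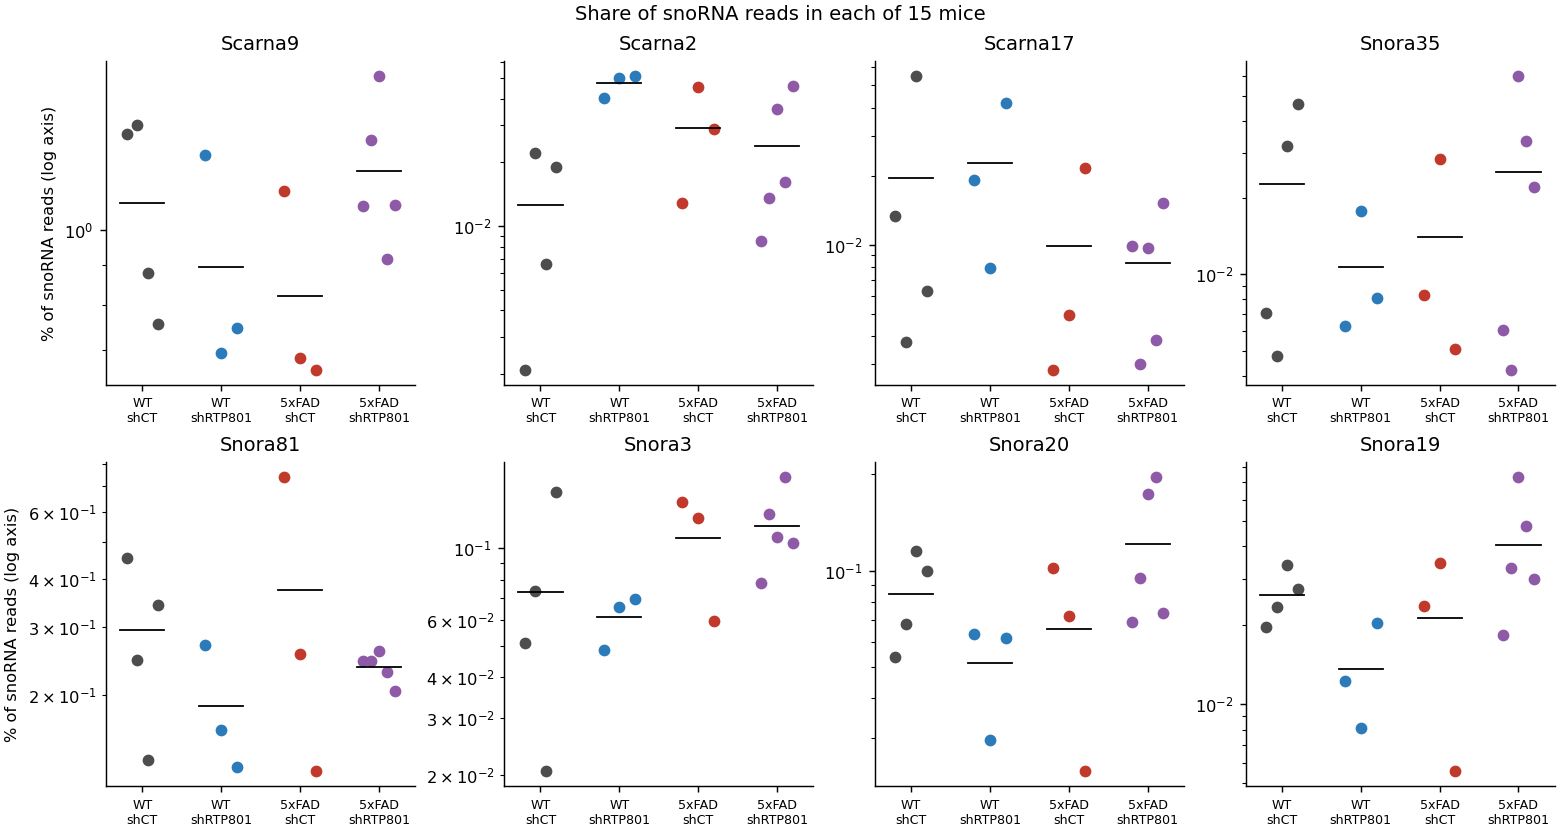
Share of snoRNA reads (y axis, %, log) of 8 members in each of the 15 mice, by group; horizontal lines are group means. Scarna2 spans 24.7-fold and Scarna9 2.39-fold, and the 3 WT shRTP801 mice lie above all WT shCT mice for Scarna2 only among the 8 members drawn.

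Several Snora are known for other roles or places of expression. Snora35, from an intron of the serotonin receptor gene Htr2c on the X chromosome, is known as a brain snoRNA. It took 0.00704%, 0.00479%, 0.0319% and 0.0468% in WT shCT, 0.00629%, 0.0177% and 0.00804% in WT shRTP801, 0.00828%, 0.0285% and 0.00511% in 5xFAD shCT and 0.00604%, 0.00421%, 0.0601%, 0.0333% and 0.0219% in 5xFAD shRTP801 mice. It varied 14.3-fold between the lowest and the highest mouse, both in the 5xFAD shRTP801 group, and the groups of every comparison overlapped. Snora73a and Snora73b, known for a role in cleavage of the ribosomal RNA precursor, took 0.00385% ± 0.00189 and 0.00244% ± 0.00192. Both lie in Snhg3, and their log2 shares rose and fell together (Pearson correlation 0.92 over 15 mice, with the denominator in common and up to 95 and 78 reads in a mouse). Reads that map to both genes could be divided between them by the counting. The telomerase RNA Terc, which has an H/ACA domain, was not analysed here.

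Nearly all members sit in a host gene. Of the 47 members found in RefSeq, 46 lie inside a protein-coding gene or a long noncoding RNA. Among the 39 Snora, 12 lie in ribosomal protein genes, 4 in translation factor genes, 9 in long noncoding RNAs, 13 in other protein-coding genes, and 1 (Snora9) was not found. Hosts were assigned by position only, without strand. Snora78, whose span lies in both Rps2 and Snhg9, was counted with the ribosomal protein genes. The 4 in translation factor genes (Snora81, Snora28, Snora19 and Snora41) summed to 0.352% of the snoRNA reads, the 12 in ribosomal protein genes to 0.177%, the 9 in long noncoding RNAs to 0.0922% and the 13 others to 0.218%. Snora81 alone makes most of the first sum. Members of the same host did not have equal reads. In Snhg12, and per 100 nt of the span, Snora16a came to 0.0255%, Snora44 to 0.00584% and Snora61 to 0.00147%. In Kansl2, Snora34 came to 0.0194% and Snora2b to 0.00768%. Snora64, in Rps2, came to 0.0141%, and Snora78, in Rps2 or Snhg9, to 0.000481%.

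Groups were then compared gene by gene with limma on the log2 of the share plus 0.01%, adjusted by Benjamini-Hochberg over all genes tested. With all 18 mice, 97 genes had a mean share of at least 0.01%, and 24 of the 48 members were among them, 21 Snora and 3 Scarna (Scarna2, Scarna9 and Scarna17). The other 24 were too low to be tested. Of the 24, 5 (Snora36b, Snora65, Snora69, Snora70 and Snora74a) passed only through the libraries with few reads. With the 15 mice, 92 genes and 20 members were tested. A threshold on the mean favours members that are high in any group, so the members tested are not a sample of all 48.

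In the contrast of 5xFAD shCT with WT shCT animals, 0 of the 24 members were called by limma in all 18 mice, and 0 of 97 genes (0%), with 0 members and 6 genes at an unadjusted p under 0.05. edgeR on the recovered reads, DESeq2 and the exact permutation test called 0 members as well. The 15 mice gave 0 of 20 members, 0 of 92 genes (0%) and 0 members at an unadjusted p under 0.05. The smallest unadjusted p of a member belonged to Scarna2, with a log2 difference of 1.03 ± 0.765 (SE) and an adjusted p of 0.893 in limma over all mice, and of 0.82 ± 0.456 with an adjusted p of 0.564 over the 15. Snora3 (1.22 ± 0.964) and Snora64, which lies in the ribosomal protein gene Rps2 (0.64 ± 0.521), came next, both with an adjusted p of 0.893. The 15 mice gave 0.66 ± 0.465 for Snora3 and 0.42 ± 0.364 for Snora64. The median log2 difference of the members tested in the 15 mice was 0.03, and that of all genes tested 0.01. Of all 48 members, 1 did not overlap between these groups in the 15 mice, Snora57, which was lower in 5xFAD shCT mice (0.000740%, 0.000672% and 0.00120%) than in WT shCT mice (0.00129% to 0.00332%). Over all 133 genes, 3.01% did not overlap, and 2.26% were lower. With 3 to 22 Snora57 reads in a mouse, its values have a wide counting error.

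In the contrast of 5xFAD shRTP801 with 5xFAD shCT animals, 0 of 24 members and 0 of 97 genes (0%) were called by limma over all mice, with 0 members and 0 genes at an unadjusted p under 0.05. The exact permutation test and edgeR each had 1 of 24 members, Snora65, and 8 of 97 genes at an unadjusted p under 0.05. Both called 0 members, and DESeq2 called 0. The 15 mice gave 0 of 20 members and 0 of 92 genes (0%). The members with the smallest unadjusted p were Snora65, in Rpl12, at a log2 difference of 0.91 ± 0.567, Snora20 at 1.20 ± 0.865 and Snora7a, in Rpl32, at 0.83 ± 0.632, each with an adjusted p of 0.956 in limma. In 5xFAD shRTP801 mouse 7, 1 Snora65 read made 0.106%, 5 Snora20 reads 0.530% and 2 Snora7a reads 0.212%. Snora65 passed the filter only through libraries with few reads. Over the 15 mice it averaged 0.0103% ± 0.00523 in 5xFAD shRTP801 and 0.00419% ± 0.000906 in 5xFAD shCT mice. In the 15 mice the values were 0.84 ± 0.448 for Snora20 (adjusted p 0.502) and 0.33 ± 0.310 for Snora7a (adjusted p 0.848). Over the 15 mice with every gene kept, 40 of 48 members and 40 of 85 Snord had a higher mean log2 share in 5xFAD shRTP801 mice. The median log2 difference was 0.46 for the members and 0.13 for all 133 genes. As a share of all reads, all 39 members and 77 of 79 Snord above the filter were lower. In the same every-gene fit, 32 of 48 members and 42 of 85 Snord were lower in 5xFAD shCT than in WT shCT mice (median of the members -0.22, of all genes -0.10). In WT shRTP801 against WT shCT mice 27 members and 27 Snord were lower (-0.10 and 0.13). In 5xFAD shRTP801 against WT shRTP801 mice 38 members and 30 Snord were higher (0.38 and 0.02). Between 5xFAD shRTP801 and 5xFAD shCT mice, 3 of the 48 members did not overlap, all higher in 5xFAD shRTP801 mice. They were Snora44 (0.00653% to 0.0126%, against 0.00451% to 0.00605%), Snora5c (0.00136% to 0.00421%, against 0.000740% to 0.000918%) and Snora2b (0.00875% to 0.0135%, against 0.00608% to 0.00814%). They make 6.25% of the 48 members, beside 6.02% of all 133 genes that were higher without overlap, and 6.77% in either direction.

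In the contrast of WT shRTP801 with WT shCT animals, 0 of 24 members and 0 of 97 genes (0%) were called by limma over all mice, with 0 members and 6 genes at an unadjusted p under 0.05. Scarna2 came first, with a log2 difference of 1.38 ± 0.703 and an adjusted p of 0.70. edgeR called 0 members and 1.03% of the genes, DESeq2 0 members and 3.09% of the genes, and the exact permutation test 0 members and 0%. Scarna2 was the only member at an unadjusted p under 0.05 in edgeR, beside 10 of 97 genes, and in the exact test, beside 6 of 97. In the 15 mice, limma called 3 of 92 genes (3.26%), all of them Snord (Snord14c, Snord14d and Snord35a), and 0 of the 20 members. An unadjusted p under 0.05 was found for 1 member and for 11 of the 92 genes. Scarna2 had a log2 difference of 1.45 ± 0.456 there, with an unadjusted p of 0.00502 and an adjusted p of 0.0924 in limma. It was 0.0474% ± 0.00613 in WT shRTP801 and 0.0125% ± 0.00970 in WT shCT mice, and all 3 WT shRTP801 mice stood above all 4 WT shCT mice. The next members were Snora75, at -1.15 ± 1.07 with all mice and -0.11 ± 0.364 with 15, and Snora26, from the long noncoding RNA Dancr, at 0.64 ± 0.609 with all mice and -0.09 ± 0.454 with 15. Scarna3b was the other member without overlap, at 0.00443% to 0.00465% in WT shRTP801 mice and 0.00541% to 0.00996% in WT shCT mice. Over all 133 genes, 8.27% were higher and 0.752% lower without overlap, 9.02% in all, against 1 member in each direction.

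For 5xFAD shRTP801 against WT shRTP801 animals, 0 of 24 members and 0 of 97 genes (0%) were called by limma over all mice, with 0 members and 0 genes at an unadjusted p under 0.05, and 0 members by edgeR, DESeq2 and the exact permutation test. The members with the smallest unadjusted p were Snora65 (0.67 ± 0.518), Snora7a (0.70 ± 0.577) and Snora41, from an intron of Eef1b2 (0.63 ± 0.55), each with an adjusted p of 0.988. Snora65 passed the filter only through libraries with few reads. In the 15 mice, 0 of 20 members and 0 of 92 genes (0%) were called, while 3 members and 21 genes had an unadjusted p under 0.05. The 3 were Snora19, with a log2 difference of 1.03 ± 0.402 and an adjusted p of 0.146, Snora28, with 0.82 ± 0.329 and 0.147, and Snora20, with 1.03 ± 0.448 and 0.189. The 4 members higher without overlap were Snora3, Snora5c, Snora28 and Snora20, 8.33% of the members beside 6.77% of all 133 genes. No member was lower without overlap, against 7.52% of all genes, and 14.3% of the genes did not overlap in either direction. The median log2 difference of the members tested in the 15 mice was 0.37 and that of all genes tested -0.07.

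The interaction of genotype and shRNA asks whether the difference between shRTP801 and shCT mice was the same in 5xFAD as in WT animals. With all mice, limma called 0 of 24 members and 0 of 97 genes (0%), with 0 members and 9 genes at an unadjusted p under 0.05, and edgeR and DESeq2 each called 0 members and 1.03% of the genes. Snora75 (1.83 ± 1.56), Scarna2 (-1.05 ± 1.02) and Snora64 (-0.63 ± 0.696) came first, each with an adjusted p of 0.916. The value of Snora75 was 0.48 ± 0.504 (adjusted p 0.627) and that of Snora64 -0.13 ± 0.504 (adjusted p 0.913) in the 15 mice, which leave out WT shCT mouse 5 with its 71 snoRNA reads. In these mice, limma called 1 of 92 genes (1.09%), Snord35a, and 0 of 20 members. An unadjusted p under 0.05 was found for 4 of the 20 members and for 24 of the 92 genes (26.1%). Scarna2 had the smallest unadjusted p of the members, 0.0151, with an interaction of -1.69 ± 0.631 on the log2 scale and an adjusted p of 0.126. Snora19 (1.36 ± 0.582, adjusted p 0.144), Snora20 (1.46 ± 0.648, adjusted p 0.156) and Snora28 (1.04 ± 0.476, adjusted p 0.159) had the opposite sign.

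The snoRNA reads themselves were not a constant share of the libraries. Over the 15 mice they made 2.44% ± 1.46 of all reads in 5xFAD shRTP801 and 5.77% ± 0.737 in 5xFAD shCT mice, beside 5.10% ± 0.456 in WT shRTP801 and 2.57% ± 1.69 in WT shCT mice. The mitochondrial tRNAs moved with them, at 18.4% ± 9.27, 34.3% ± 5.97, 37.1% ± 3.01 and 21.3% ± 10.2 of all reads in the same order, and the part of this difference in the members' values was not tested. In bulk libraries, fewer cells of a type and less RNA per cell cannot be told apart. As a share of all reads, with 39 members above the filter of 0.0001%, all 39 had a higher log2 mean in 5xFAD shCT than in WT shCT mice and all 39 in WT shRTP801 than in WT shCT mice. All 39 were lower in 5xFAD shRTP801 than in 5xFAD shCT mice, and 38 of 39 in 5xFAD shRTP801 than in WT shRTP801 mice. Of 79 Snord above the filter, 79, 79, 77 and 77 went the same way in these comparisons, so the one-sided change was not particular to the members. The direction of the members thus depended on the denominator. The median log2 differences of the members were 0.77, 0.72, -0.68 and -0.54 in this order, beside 0.33, 0.30, -0.00432 and -0.000686 over the 1378 entries of the table tested. Those of the Snord were farther from 0, at 1.28, 1.51, -1.40 and -1.48. Of the members, 5, 2, 2 and 2 had an unadjusted p under 0.05, beside 10.7%, 14.7%, 11.5% and 13.6% of all entries, and 0 were called by limma in any of these 4 comparisons, where 0% of all entries were called.

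**Figure D5:**
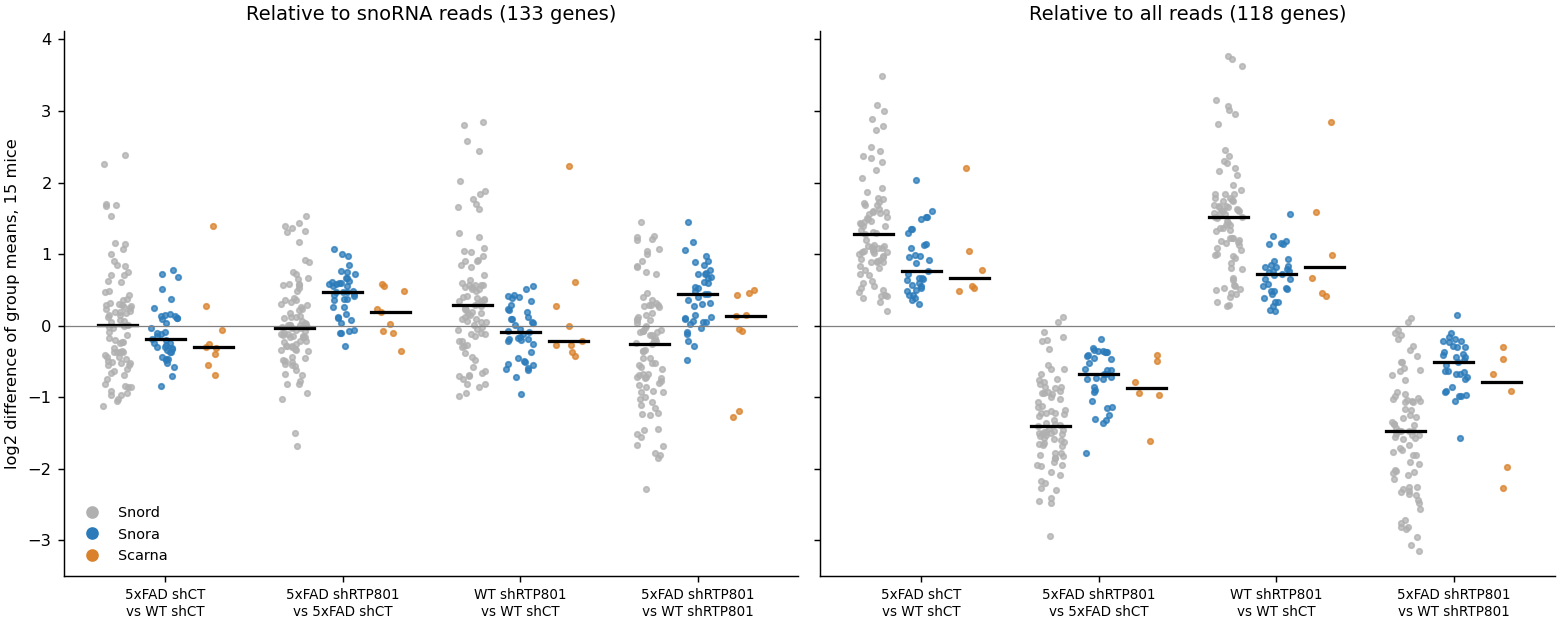
Log2 difference between group means for each Snord, Snora and Scarna gene in the 15 mice, as a share of snoRNA reads (left) and of all reads (right), in 4 comparisons; black bars are class medians. On the left the Snora medians run from -0.19 to 0.47, and on the right the members above the filter lie on a single side of 0 in 3 comparisons and all but 1 of them in the fourth. On the right 77 or 79 of 79 Snord lie on the same side as the members in each comparison, with medians from -1.48 to 1.51.

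On that scale, the interaction was called for 29 of 1378 entries (2.1%) in the 15 mice, and Scarna2 was the only member among them, with -4.47 on the log2 scale and an adjusted p of 0.0326 in limma. The other 38 members tested also had a negative interaction, and 14 of 39 members had an unadjusted p under 0.05, beside 30.3% of all entries. Per 1000000 reads, Scarna2 had 0.484, 5.32, 0.482 and 9.24 reads in WT shCT mice and 22.5, 25.5 and 24.0 in WT shRTP801 mice. It had 7.32, 23.2 and 18.9 in 5xFAD shCT mice and 2.92, 2.51, 2.04, 3.25 and 19.9 in 5xFAD shRTP801 mice. The WT groups did not overlap, and 4 of 5 mice of 5xFAD shRTP801 lay below all 3 of 5xFAD shCT. How many of all entries did not overlap on this scale was not counted. The snoRNA reads as a whole made 4.67% to 5.58% of all reads in WT shRTP801 and 0.726% to 4.83% in WT shCT mice. They made 5.09% to 6.55% in 5xFAD shCT and 0.573% to 4.32% in 5xFAD shRTP801 mice, which did not overlap. When each of the 15 mice was left out in turn, the interaction of Scarna2 stayed between -4.99 and -4.06, while its adjusted p ran from 0.00935 to 0.133. The call was kept without WT shCT mouse 6 or 15, without 5xFAD shCT mouse 1 and without 5xFAD shRTP801 mouse 2 or 19, and lost without any of the other 10. The number of members called then ran from 0 to 14. Without WT shCT mouse 15 it was 14 of 39, beside 27.1% of all entries, and without 5xFAD shRTP801 mouse 19 it was 4 of 39, beside 13.8% of all entries. With all 18 mice, 0 of 35 members and 0 of 1385 entries (0%) were called, and on the scale of the snoRNA reads Scarna2 was not called.

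Small nuclear RNAs, some of which are targets of Scarna, were read from the same fit. The table held 11 such entries, which counted as 10 once copies were removed, for U1, U2, U5, U6, U7, U11 and U12. In limma, 0 of 10 were called in any comparison, over all mice or over the 15, with at most 1 of 10 at an unadjusted p under 0.05. In the 15 mice, all 10 had a higher log2 mean in 5xFAD shCT than in WT shCT mice (median 1.0), 9 of 10 in WT shRTP801 than in WT shCT mice (0.80), 0 in 5xFAD shRTP801 than in 5xFAD shCT mice (-0.58) and 2 in 5xFAD shRTP801 than in WT shRTP801 mice (-0.49). The U2 entry Rnu2-10, of the snRNA that Scarna2 and Scarna9 act on, made 0.252% ± 0.0724 of all reads in 5xFAD shRTP801 and 0.478% ± 0.0884 in 5xFAD shCT mice, beside 0.347% ± 0.0990 in WT shRTP801 and 0.234% ± 0.183 in WT shCT mice. Rnu7, whose RNA acts in histone mRNA processing and not in the spliceosome, was the entry with a lower log2 mean in WT shRTP801 than in WT shCT mice, at a log2 difference of -0.03.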

How the data were processed

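Hydro-tRNA-seq libraries of the hippocampi of 18 mice were used. Per the methods, the authors analysed the reads with tRAX, and the deposited values are a normalized read count, a signal per entry that is scaled by 1 factor per library as far as the values show. The submitters' processing notes name the build mm39, while the aligner and the tRAX version are not given in the sources used here. In each library, 100% of the deposited values were whole multiples (tolerance 0.01) of the smallest non-zero value, which recovered the reads. Entries whose reads differed, summed over the mice, by at most 5% of the larger total were counted once. The groups come from the labels.

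For genes with a mean of at least 0.01%, log2 of the percentage of snoRNA reads plus 0.01 was fitted over 4 group means by limma 3.58.1 (R 4.3.3), and calls were made at 0.05 after the adjustment of Benjamini and Hochberg. edgeR 4.0.16 (quasi-likelihood) and DESeq2 1.42.0 on recovered reads, an exact two-sided permutation test, other pseudocounts, filters, denominators and copies, and leaving out mice were alternatives. The edgeR, every-gene and whole-table fits on the 15 mice, and leaving out single mice there, were added after seeing the data. The sums were compared as log2 of the percentage plus 0.01. Entries of the whole table were fitted on log2 of the percentage of all reads plus 0.0001. Wilson 95% intervals and the limit of 3 counts at a count of 0 cover counting error only. Replicates are separate mice. The procedures were tested on simulated data. Python 3.11.15, numpy 2.4.6, pandas 2.3.3, scipy 1.17.1 and matplotlib 3.10.9 were used.

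The members and lists were chosen with earlier results of these data known. Named genes were every Scarna tested, the 10 Snora with the highest mean share over all mice, the 3 members with the smallest p in each comparison, and Snora35, Snora73a, Snora73b and Terc. Snora5c, Snora44, Snora2b, Snora57, Scarna3b, other members and members in pairs by host or miRNA were named after their values were seen. From the snRNA list, entries of U3, a C/D snoRNA, and of 5S ribosomal RNA were left out after the names were seen. RefSeq (GRCm38.p6) gave lengths, host genes and miRNA sequences.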

Additional observations from a re-analysis of the deposited data

Results flagged for a closer look

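Among the groups of 4 to 6 mice, 53 sets of values were searched for a mouse far from the rest, and chance alone gives about 1 in 20. Of these, 2 were found. The Snora share of WT shCT mouse 5 was 2.82%, which rests on 2 of 71 snoRNA reads, while the other 4 mice of the group lay between 0.601% and 1.19%. Among the 15 mice with at least 100000 snoRNA reads, Snora65 took 0.00940% in WT shCT mouse 15 and 0.00332% to 0.00432% in the other 3 mice of the group.

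The effect of the shRNA on Scarna2 differed between 5xFAD and WT mice when it was measured as a share of all reads in the 15 mice, with an interaction of -4.47 on the log2 scale (limma, adjusted p 0.0326 over 1378 entries). With each of the 15 mice left out in turn the interaction stayed between -4.99 and -4.06, and the call was kept without 5 of them and lost without the other 10. It was not made with all 18 mice or as a share of the snoRNA reads. In the same limma fit over all reads in the 15 mice, 29 of 1378 entries (2.1%) were called. An unadjusted p under 0.05 was found for 30.3% of all entries, and all 39 members tested had a negative interaction. The call is thus not particular to Scarna2 in this table.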

How the results depend on the processing

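No paired analysis was possible because every mouse has a number of its own and no number is used in 2 groups. In the 4 comparisons of groups, the number of members called was 0 under each of 36 alternatives. For the interaction it was 0 except over the whole table in the 15 mice. It was 1 there (Scarna2, -4.47), beside 2.1% of all entries. Leaving out 1 mouse at a time in that fit gave 0 to 14 members. The number was 1 without WT shCT mouse 6, 5xFAD shCT mouse 1 or 5xFAD shRTP801 mouse 2, beside 2.18%, 3.77% and 2.53% of all entries. It was 4 of 39 without 5xFAD shRTP801 mouse 19, where 13.8% of all entries were called, and 14 of 39 without WT shCT mouse 15, where 27.1% were called. The sums moved with the denominator and with the libraries with few snoRNA reads. As a percentage of all reads, the log2 difference of the Snora sum was 2.93 for 5xFAD shCT against WT shCT (-0.32 as a share of snoRNA reads), -2.44 for 5xFAD shRTP801 against 5xFAD shCT (0.33), 0.87 for WT shRTP801 against WT shCT (-0.49) and -0.38 for 5xFAD shRTP801 against WT shRTP801 (0.50). That of the Scarna sum was -2.21 (0.52) and -0.34 (0.57) in the second and the last of these. WT shCT mouse 5 (2 Snora reads) is in the first and the third of the 4 comparisons, and 5xFAD shRTP801 mouse 7 (16 Snora reads) in the second and the last. WT shRTP801 mouse 4 (73 Snora reads) is in the third and the last. In the 15 mice, an alternative chosen after seeing the data, the same 4 values of the Snora sum were 1.48 (0.043 as a share of snoRNA reads), -1.32 (0.19), 0.92 (-0.34) and -0.76 (0.58), and those of the Scarna sum were -1.01 (0.51) and -0.99 (0.35) in the second and the last.

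The sign turned in these cases, given for the percentage of all reads, the deposited values and the percentage of all reads in the 15 mice. For 5xFAD shRTP801 against 5xFAD shCT they were -0.44, -1.21 and -0.19 for Snora65, -1.22, -1.69 and -0.52 for Snora20, and -1.09, -1.83 and -0.74 for Snora7a. For Snora75 they were 0.48, 0.63 and 0.76 in WT mice and -1.59, -2.55 and -1.47 for the interaction. Leaving out 1 mouse at a time gave -1.56 to 0.21 for Snora75 in WT mice, the highest without WT shCT mouse 5. For 5xFAD shRTP801 against WT shRTP801 they were -0.10, -0.19 and -0.36 for Snora7a, the last 2 of them -0.0070 and -0.11 for Snora65, and the last -0.28 for Snora41. Snora26 in WT mice was -0.11 in DESeq2, and in the 15 mice -0.086 in limma, -0.12 in limma over every gene, and -0.18 in edgeR with and without the filter. The cause was not tested. Counts of few reads limit the low members: 24 of 48 were under the filter, and the 3 libraries with few snoRNA reads give little on any single member.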
